A study of Homo sapiens with 32 samples.

Results

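The sites described here were called as ZNF143 peaks far from the annotated starts of protein-coding genes and apart from 3 other promoter-binding factors. They are 3016 of the 16165 ZNF143 peak summits on chromosomes 1 to 22 and X (18.7%). A summit is the position of highest signal within a called peak. The members were chosen by 2 position rules. Each lay more than 2000 bp from every protein-coding gene 5′ end of GENCODE release 44 (the gene record's start, so starts of a gene's other transcripts were not used), and no SP1, NRF1 or YY1 summit lay within 100 bp. The other ZNF143 summits were 4707 distal ones with another factor within 100 bp, called shared distal summits below, and 8442 at most 2000 bp from such a 5′ end, called promoter-proximal summits.

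The cells were clone HEK_CloneZD29 of HEK293T, a human embryonic kidney cell line, in which ZNF143 carries an inducible degron. All groups shared this tagged clone, and no untagged parental line was analysed here. In chromatin immunoprecipitation with sequencing (ChIP-seq), fixed chromatin is fragmented, an antibody pulls down a protein with the DNA it sits on, and sequencing of that DNA maps where the protein was. The 32 samples formed 10 groups, each from cells left untreated or exposed for 30 min to the degrader ligand dTAGV-1 (50 nM), with antibodies to SP1, NRF1 or YY1 (4 samples per group), with an antibody to the HA tag for ZNF143 (2 per group), or in a mock precipitation (2 per group). The deposited summit lists, 1 per antibody, hold no value per sample or treatment, and which samples went into each is not stated. ZNF143 binding before and after degradation could therefore not be compared at the members, nor could their signal be set against the mock. Read depth is unknown, and no value below has a replicate error. Intervals are 95% Wilson intervals, which cover counting error among summits only, and summits are not biological replicates.

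ZNF143 is a zinc finger protein, the human relative of the frog factor Staf. It is known for activating small nuclear RNA genes, the selenocysteine transfer RNA gene and many protein-coding genes from sites close to their starts. Its site has a core element, searched here as CCCANNATG, and directly before it in longer sites an upstream element, ACTACANNT, each N being any base. SP1 binds GC boxes, NRF1 a palindromic GC-rich site and YY1 a site around ATGG, and all of them are common at promoters with CpG islands.

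Examples from the members with the highest scores show what the upstream element looks like at these places. Each line gives 60 bp of the hg38 reference read along the strand of the element, with the element and the CCCA that follows it directly in capitals. All 5 have a central 31 bp that occurs nowhere else in the assembly. They were picked after their values were seen, from members in introns or between genes that had no transcript start within 500 bp. The score is the authors' −log10 p-value or q-value.
ZBTB7B intron, chr1:155006981-155007040, minus strand, score 8710: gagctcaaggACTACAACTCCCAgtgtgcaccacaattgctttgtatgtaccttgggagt
CAVIN1 intron, chr17:42407674-42407733, minus strand, score 6350: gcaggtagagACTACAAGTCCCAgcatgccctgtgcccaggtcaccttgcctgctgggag
PTPRH intron, chr19:55197717-55197776, minus strand, score 4639: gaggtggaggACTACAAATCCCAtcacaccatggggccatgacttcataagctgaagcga
NUCB1 intron, chr19:48913304-48913363, minus strand, score 3998: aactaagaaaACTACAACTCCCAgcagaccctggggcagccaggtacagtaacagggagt
upstream of ZFYVE27, chr10:97726797-97726856, minus strand, score 3910: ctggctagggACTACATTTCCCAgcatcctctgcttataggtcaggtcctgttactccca
Only the CAVIN1 site goes on from CCCA to the rest of the core element. The others carry the upstream element and CCCA, followed by letters that depart from the core as searched.

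Other members had the core and no exact copy of the upstream element. The 4 with the highest scores that met the same conditions are shown with the core in capitals.
KHK intron, chr2:27096411-27096470, minus strand, score 4302: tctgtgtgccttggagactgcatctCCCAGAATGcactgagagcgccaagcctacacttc
CASZ1 intron, chr1:10646552-10646611, minus strand, score 1296: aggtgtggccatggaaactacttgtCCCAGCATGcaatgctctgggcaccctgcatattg
upstream of PIP5K1B, chr9:68685914-68685973, minus strand, score 1022: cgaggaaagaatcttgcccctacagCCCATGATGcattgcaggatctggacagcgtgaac
JPH2 intron, chr20:44118857-44118916, minus strand, score 894: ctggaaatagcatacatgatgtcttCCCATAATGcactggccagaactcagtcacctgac
At KHK and CASZ1 the upstream element stands directly before the core with 1 mismatch, so the exact search did not count it. KHK is the fructose kinase ketohexokinase, CASZ1 a zinc finger transcription factor, PIP5K1B a lipid kinase and JPH2 a junction protein of heart muscle. A gene named for a site is the gene around it or the nearest protein-coding start, and whether the site acts on that gene was not measured.

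The upstream element was the commonest consensus sequence at the members. It lay wholly within 50 bp of the summit in 768 of the 3016 members, 25.5% (23.9 to 27.0), and in 36 of the flanking windows of the same size 400 bp away, 1.19% (0.863 to 1.65). The share at summits was 21.3 times that in flanks (exact McNemar test, two-sided, adjusted p = 5.34e-187 by the Benjamini-Hochberg method over 9 consensus sequences). The core lay at 396 members, 13.1% (12 to 14.4), and in 46 flanks, 1.53%, a ratio of 8.61 (adjusted p = 1.49e-72 by the same exact test). With 1 mismatch allowed the ratio was 1.71 for the upstream element (1306 members, 765 flanks) and 1.88 for the core. The members with either element numbered 1136, 37.7% (36.0 to 39.4), leaving 1880 with neither in the form searched.

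Both elements were commoner among the members than among the other ZNF143 summits. Of the shared distal summits, 6.35% had the upstream element, which put the members 19.1 percentage points higher (95% Newcombe interval 17.4 to 20.8). Against the promoter-proximal summits, at 7.15%, the members were 18.3 points higher (16.7 to 20.0). For the core the members were 7.39 points above the shared distal summits (6.04 to 8.80), which stood at 5.74%, and 8.33 points above the promoter-proximal ones (7.08 to 9.66), at 4.80%. The upstream element became a main comparison only after its values were seen.

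**Figure D1:**
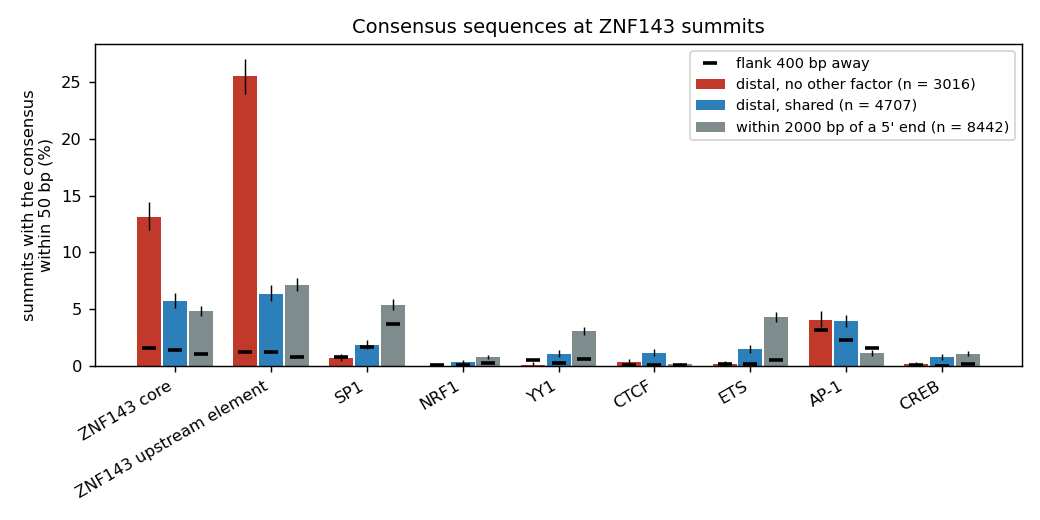
Share of ZNF143 summits (%) with each consensus sequence wholly within 50 bp, for the members (red), the shared distal summits (blue) and the promoter-proximal summits (grey), with 95% Wilson intervals as thin lines and the share in flanks 400 bp away as black dashes. The members stand highest for the upstream element at 25.5% and for the core at 13.1%.

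The other consensus sequences were rare at the members. The SP1 sequence GGGGCGGGG was at 21 members and 23 flanks, the NRF1 sequence GCGCATGCG at 0 members, which allows a share of up to 0.127% (upper Wilson bound), and the YY1 sequence AANATGGCG at 3 members and 15 flanks. The rule removed places with a summit of these 3 factors, so their low shares are a description only. The sequences of factors without an antibody here did not differ from the flanks past the threshold. AP-1 (TGANTCA) was at 122 members and 95 flanks, a ratio of 1.28 (adjusted p = 0.132, exact McNemar test), ETS (CCGGAAGT) at 5 and 5, and CREB (TGACGTCA) at 4 and 3. CTCF, the factor of chromatin loop anchors, had its consensus at 9 members, 0.298% (0.157 to 0.566), and 2 flanks, a ratio of 4.50 (adjusted p = 0.132, exact McNemar test). Under 7 alternative settings the CTCF ratio lay between 2.43 and 9.0 with an adjusted p under 0.05. The members had the CTCF consensus less often than the shared distal summits, by -0.828 points (95% Newcombe interval -1.20 to -0.451), and more often than the promoter-proximal summits, by 0.180 points (0.00712 to 0.453). AP-1 was 0.115 points higher than in the shared distal summits, with an interval that spans 0 (-0.763 to 1.04), and 2.94 points higher than in the promoter-proximal ones (2.25 to 3.73).

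The upstream element marked the strongly scored members and the core the middling ones. The 740 members with the upstream element alone had a median score of 147 (quartiles 48.6 and 420), the 368 with the core alone 17.9 (10.4 and 38.8), and the 1880 with neither 10.6 (4.68 and 27.2). The 28 with both within the window had a median of 268. When the members were ordered by score and divided into 5 groups of 603 or 604, the share with the upstream element was 1.32% in the lowest group, then 3.32%, 12.9% and 40.6%, and 69.2% (65.4 to 72.7) in the highest. The core ran 5.13%, 16.4%, 21.6%, 15.4% and 7.13%, with its highest share in the middle group. In the highest group of the shared distal summits, the upstream element stood at 27.2% and the core at 15.9%, and in that of the promoter-proximal summits at 33.6% and 15.2%. The core share did not fall towards high scores in those sets. This division was made after the scores were seen, and the score groups of the 3 sets span different scores.

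**Figure D2:**
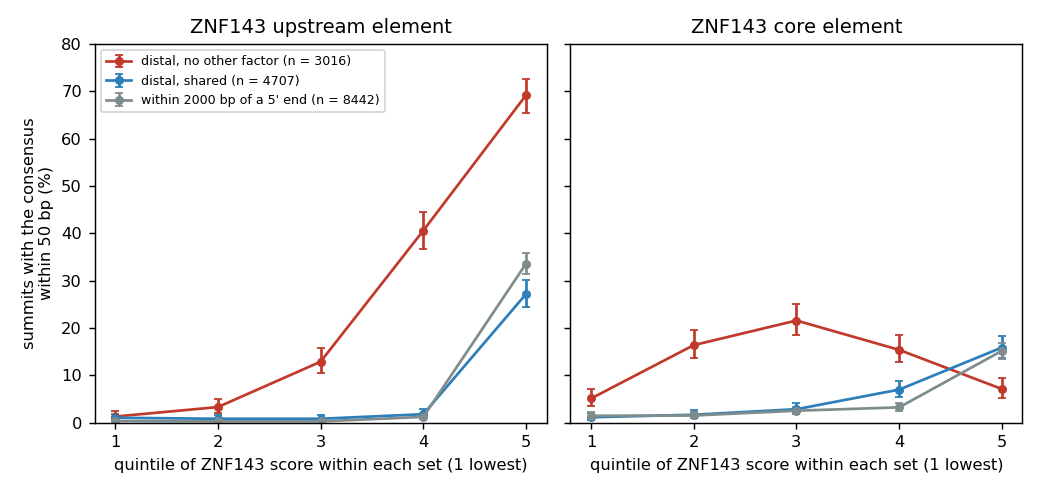
Share of summits (%) with the upstream element (left) and the core element (right) in 5 equal groups by ZNF143 score, 1 being the lowest, within the members (red), the shared distal summits (blue) and the promoter-proximal summits (grey), with 95% Wilson intervals. The members' upstream element rises from 1.32% to 69.2%, while their core peaks at 21.6% in the third group.

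The members had the highest median score of the 3 sets and the fewest very high scores. Their median score was 18.6 (quartiles 6.69 and 79.7), against 11.4 (5.61 and 38.9) for the shared distal and 12.6 (5.61 and 90.3) for the promoter-proximal summits. At the top of the range the members were lowest. The 95th percentile of the score was 674 among members, 3297 among shared distal and 8342 among promoter-proximal summits, and only 48 members (1.59%) reached the highest-scoring 10% of the ZNF143 list, against 14.4% of the promoter-proximal summits. At the 100-bp limit the median score was 9.09 for 119 members with another factor over 100 and up to 110 bp away and 9.44 for 128 distal summits at 91 to 100 bp. At the other limit, 32 members over 2000 and up to 2200 bp from a 5′ end had a median of 5.56, and 41 summits an equal distance inside it, otherwise meeting the rule, 4.97.

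How far the nearest SP1, NRF1 or YY1 summit lay divided the members into unlike groups. It was over 100 and up to 250 bp away for 884 members (29.3%), up to 1000 bp for 487 (16.1%), up to 10000 bp for 780 (25.9%) and farther for 865 (28.7%). The upstream element was at 4.41% (3.24 to 5.97) of the first group, 8.01% (5.91 to 10.8) of the second, 35.4% (32.1 to 38.8) of the third and 47.9% (44.5 to 51.2) of the last. The median ZNF143 score rose in the same order, from 7.46 and 8.36 to 33.8 and 44.2. The core varied less, at 7.58%, 12.3%, 17.9% and 14.9%. Of the first group 30.8% lay within 500 bp of an annotated transcript start, and of the last 4.28%. These groups were set with the values in view, and the rule itself used the lists that define them.

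**Figure D3:**
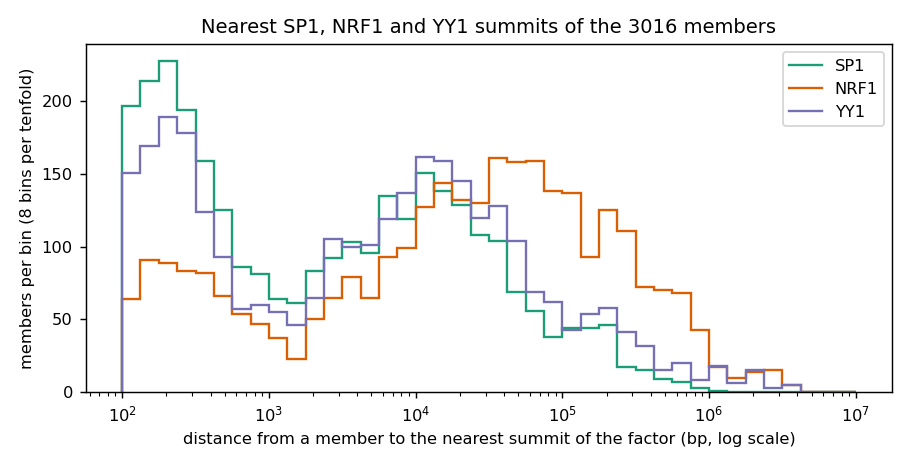
Number of members by the distance to the nearest SP1 (green), NRF1 (orange) and YY1 (purple) summit, in bp on a log scale. The bins widen with distance, so the counts are per bin and not per bp. In these counts each factor shows a rise just beyond the 100-bp limit and another beyond 1000 bp. An SP1 summit lay over 100 and up to 250 bp from 674 members, a YY1 summit from 539 and an NRF1 summit from 265.

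Within their peaks most members stood alone. For 2474 (82.0%) the member was the only summit of its peak, against 75% of the shared distal and 59.9% of the promoter-proximal summits. Of the 542 members with another summit in the same peak, 452 (83.4%) had at least 1 companion that itself lay within 100 bp of another factor. Such members lay in a peak whose other summit fell outside the rule.

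The sequence at the members was poorer in GC and in CpG than at the other ZNF143 summits. The median GC content of the bases within 50 bp of the summit was 48.5%, against 51.5% for shared distal and 66.3% for promoter-proximal summits. The median number of CpG dinucleotides in that window was 1, against 3 and 9. No CpG at all was present at 1079 members, 35.8% (34.1 to 37.5), compared with 18.6% and 2.14%.

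By annotation, 1539 members (51.0%) lay in introns, 1143 (37.9%) between genes, 181 (6.00%) in exons of noncoding transcripts, 105 (3.48%) in untranslated exon parts and 48 (1.59%) in coding exons. A protein-coding gene contained 1361 of them (45.1%). The median distance to the nearest protein-coding 5′ end was 49498 bp (quartiles 15107 and 154946). Among shared distal summits, 49.1% lay in introns, 31.1% between genes and 52.1% inside a protein-coding gene.

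Some members were nevertheless at transcript starts, because the rule used gene-level starts of protein-coding genes alone. An annotated start of any transcript lay within 500 bp of 31.4% of shared distal and 86.9% of promoter-proximal summits. Among the members, 440 had one so near, 14.6% (13.4 to 15.9). The nearest such start belonged to another transcript of a protein-coding gene for 234, to a long noncoding RNA gene for 147, to a small RNA gene of the types listed below for 23, to a pseudogene for 20 and to other types for 16. Of the 2576 members with no start so near, 727 had the upstream element and 363 the core, and of the 440 with one, 41 and 33. The median score was 20.8 without a start and 11.2 with one. The members nearest to small RNA genes were the exception, with a median of 1161.

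Small nuclear RNA genes are the classical targets of ZNF143, and other types such as microRNA, snoRNA and ribosomal RNA genes were not counted here. Counting gene starts of the annotated types snRNA, misc_RNA, scaRNA, vault RNA, Y RNA and ribozyme within 500 bp, 26 members lay at 23 genes, and 24 of those members were at small nuclear RNA (snRNA) genes, whose products build the spliceosome. The summit was at a median of -136 bp, that is upstream of the start, and at 15 members it lay 110 to 150 bp upstream. Their scores ran from 4.22 to 7590 with a median of 1081. Another factor's summit lay over 100 and up to 250 bp from 22 of the 26. Just 1 of them had the upstream element and 1 the core as searched, and in 11 the central 31 bp occurred more than once in the assembly. RNU4-2, a gene for the U4 snRNA, had a member at position 120292036 of chromosome 12, 133 bp upstream of its start, with a score of 7590 and an SP1 summit 144 bp away. A member at position 65295927 of chromosome 15, inside an intron of PARP16, lay 124 bp upstream of RNU5A-1, a U5 snRNA gene, with a score of 4652. RNU1-28P and RNU1-27P on chromosome 14, named as pseudogene copies of the U1 snRNA gene, had members 134 and 133 bp upstream with scores of 6290 and 6090, and RNU1-3 on chromosome 1 had one 139 bp upstream at 3778. The central 31 bp at these 3 occurred 2 times in the assembly, so these bases alone do not say which copy was bound.

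Among the 10 members with the highest scores and a unique central 31 bp, 8 had the upstream element. The 2 without it were those at RNU4-2 and RNU5A-1. The highest, at 9913, lay in an intron of FIS1, a mitochondrial fission gene, 83 bp upstream of the start of another FIS1 transcript at position 101244814 of chromosome 7. GINS3, a subunit gene of the replicative helicase, held one at 6999 in an intron, 44 bp before a long noncoding RNA start and 108 bp from an NRF1 summit. In all, 6 of the 10 lay within 500 bp of a transcript start and 6 had another factor over 100 and up to 250 bp away. ZBTB7B, a transcription factor of the T-cell lineage, had its intronic member 4374 bp from the gene start, and no SP1, NRF1 or YY1 summit was nearer than 3049 bp. CAVIN1, a coat protein gene of caveolae, had YY1 nearest at 1495 bp. RASIP1 at 7350 and BRSK1, a kinase gene of neuronal polarity, at 5914 had SP1 at 232 and 1192 bp.

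A full ZNF143 site is the upstream element followed directly by the core. Sites with a mismatch, such as those at KHK and CASZ1, were not counted, and the exact form was uncommon. It was at 21 members, 0.696% (0.456 to 1.06), at 0 flanks, and at 0.404% of shared distal and 0.805% of promoter-proximal summits. The intervals of both differences span 0 (-0.0373 to 0.686 and -0.431 to 0.294 points). After CAVIN1 the highest was between genes on chromosome 7 at position 63068482 with a score of 1249, in a region where the NRF1 or YY1 list skips peak numbers. SEMA6B, a semaphorin gene, followed at 1120, then sites nearest to TFEC at 818 and HAAO at 749. The CTCF consensus was present at a member in an intron of SEMA6D with a score of 414, at one nearest to COL8A1 at 24.7, and at one in an intron of AATK at 24.5.

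Most upstream elements were followed by CCCA alone. The joined string ACTACANNTCCCA was at 709 members, 23.5% (22 to 25.1), and at 1 flank, and at 4.97% of shared distal and 4.94% of promoter-proximal summits. Letters of the same string led the count of all 8-letter words, which used no consensus but the same windows and flanks. The word AATGTAGT was in 577 members and 10 flanks, ATTTCCCA in 799 and 23, and CTGGGAAA in 820 and 28, each counted on both strands. Of the 577 members with AATGTAGT, 559 had the upstream element, so the word count is not separate from the consensus result. The 10 leading words had the highest ratio of members to flanks, with 1 added to the flank count. Of them 9 overlap in a single string around the upstream element. At least 1 of the 10 was held by 1191 members (39.5%). The last of the 10, CATGTGAC, was in 280 members and 10 flanks and does not overlap the others.

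The summit lay mostly downstream of the upstream element. In 723 of 788 copies at the members (91.8%) it was downstream of the centre of the element on its own strand, at a median of 17 bp (quartiles 11 and 24). For the core the median was 2 bp (-14 and 17), with 52.2% downstream. Among shared distal summits 78.3% and among promoter-proximal summits 68.8% lay downstream of the upstream element. The element stood on the plus strand in 377 of the 788 copies.

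**Figure D4:**
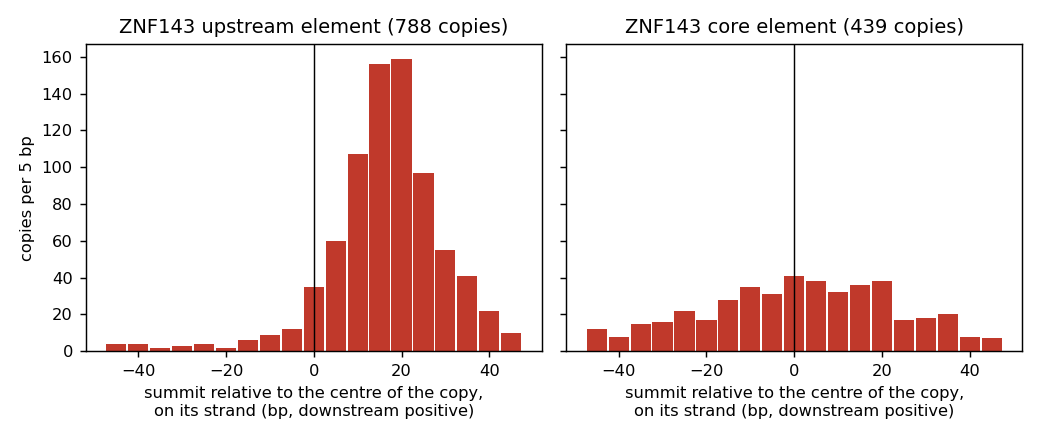
Number of copies of the upstream element (left, 788) and core element (right, 439) at members by the position of the summit relative to the centre of the copy, in bp along its strand with downstream positive, per 5 bp. The summits gather around 17 bp downstream of the upstream element and spread around 2 bp for the core.

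Aligned on the upstream element, the members shared letters beyond it. The commonest base at each position from 10 before the element to base 60 from its start, over the first copy in each of the 768 members, is printed with capitals where that base was in at least 60% of copies.
leading bases: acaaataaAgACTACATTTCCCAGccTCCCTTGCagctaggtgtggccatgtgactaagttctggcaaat
Counting the first base of the element as 1, at 13 of the 16 positions from 10 to 25 the commonest base was in at least 60% of copies, and at 0 of the 35 from 26 to 60. The word CATGTGAC lies in this farther stretch. The copies were not alike there. Of the 768, 196 (25.5%) matched at least 60% of the leading bases from 26 to 60, while the median match was 34.3%. The same match was reached by 61 of 299 copies at shared distal summits (20.4%) and by 3 of 604 at promoter-proximal summits (0.497%). From 10 to 25, a stretch that begins with CCCA, 622 member copies reached it (81.0%). At shared distal summits 166 copies did (55.5%), and at promoter-proximal summits 179 (29.6%). The leading bases were built from the members, so their own match is not independent of them, whereas the copies of the other sets took no part in building them.

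The members with the longer match are shown by 3 with high scores among those that were not at a transcript start and had a unique central 31 bp, with the upstream element and CCCA in capitals.
upstream of HRK, chr12:116892517-116892576, minus strand, score 3014: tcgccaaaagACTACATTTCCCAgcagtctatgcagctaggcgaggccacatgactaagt
upstream of TRIM33, chr1:114525139-114525198, minus strand, score 2035: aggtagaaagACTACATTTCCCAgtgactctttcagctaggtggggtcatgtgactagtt
upstream of RSPO4, chr20:1005831-1005890, minus strand, score 2033: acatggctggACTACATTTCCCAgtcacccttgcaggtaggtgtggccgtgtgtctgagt
They matched 82.9%, 68.6% and 85.7% of the 35 bases. The 3 lie on different chromosomes and share letters far past the ZNF143 site. The 196 such members were spread over 23 chromosomes, with 106 in introns, 85 between genes and 3 within 500 bp of a transcript start. The central 31 bp was repeated in 7 of them (3.57%), against 4.37% of the 572 members with the shorter match. Their median score was 192 (quartiles 69.2 and 455), against 130 (45.7 and 417) for those 572. The nearest other factor was more than 1000 bp away for 184 of the 196 (93.9%) and for 506 of the 572 (88.5%). Names of repeat families were not used here.

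**Figure D5:**
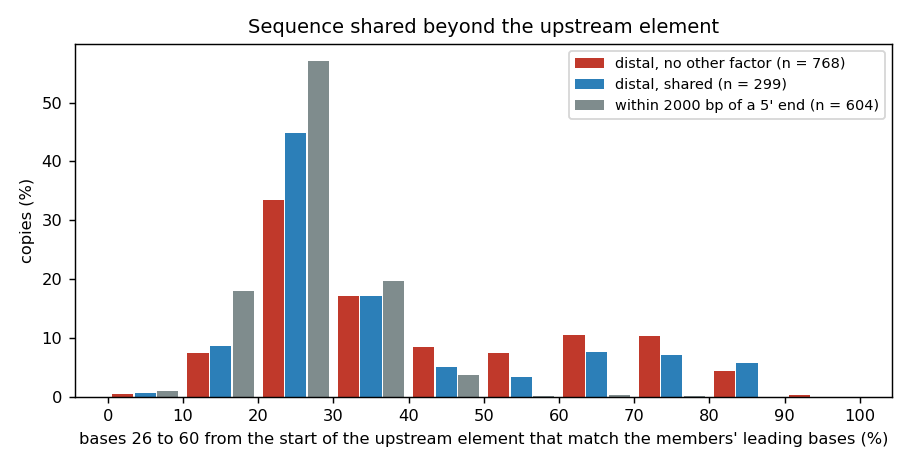
Share of copies of the upstream element (%) by how many of bases 26 to 60 match the members' leading bases, for members (red, 768), shared distal (blue, 299) and promoter-proximal (grey, 604) summits. The members and shared distal summits form a second group at 60% and above, with 25.5% and 20.4% of copies, where the promoter-proximal summits have 0.497%.

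Copies of the joined string ACTACANNTCCCA in the reference gave the view from the sequence. On chromosomes 1 to 22 and X, 3153 copies lay more than 2000 bp from a protein-coding 5′ end, and 969 of them (30.7%, 29.1 to 32.4) had a ZNF143 summit within 50 bp. Within 2000 bp it was 452 of 596 (75.8%, 72.2 to 79.1). Of the distal copies without another factor within 100 bp, 725 of 2885 (25.1%, 23.6 to 26.7) had a ZNF143 summit, and of the distal copies with one, 244 of 268 (91%, 87.0 to 93.9). The bases after the string divided the 2885. Where at least 60% of bases 14 to 25 matched the leading bases, 486 of 679 copies (71.6%, 68.1 to 74.8) had a summit, and otherwise 239 of 2206 (10.8%, 9.6 to 12.2). For bases 26 to 60 the shares were 187 of 262 (71.4%, 65.6 to 76.5) and 538 of 2623 (20.5%, 19 to 22.1). The leading bases came from copies that had summits, so a higher share among matching copies is in part built in.

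The members without either element more often had a central 31 bp that occurred more than once in the assembly. Among those 1880, the central 31 bp was repeated in 321 (17.1%). It was repeated in 37 of the 368 with the core alone (10.1%) and 32 of the 740 with the upstream element alone (4.32%). Only exact copies were counted. Sequence shared with differences was not seen by this measure, and of the 196 members with the longer match only 7 had a repeated 31 bp. Regions where the NRF1 or YY1 list skips at least 10 peak numbers in a row, in which summits of these factors may be missing from the lists, held 186 of the 1880 (9.89%) and 10 of the 740 (1.35%). Over all members the repeated share was 12.9% and the share in such regions 6.70%. The shared distal summits were higher in both, at 14.1% and 7.65%, and the promoter-proximal ones lower, at 2.82% and 0.237%. Members with a repeated 31 bp were commonest at low scores, at 28.3% of the lowest of the 5 score groups and 5.14% of the highest. The member with the highest score of all, 11243, was one of them: its 31 bp, at position 7098800 of chromosome 21, occurred 7 times, and an SP1 summit lay 104 bp away. Among the 2626 members with a unique 31 bp, the upstream element was at 736 and the excess over shared distal summits was 21.5 points (19.6 to 23.4). Among the 2814 outside skipped regions it was at 757, with an excess of 20.2 points (18.4 to 22).

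Along the genome the members averaged 0.995 per Mb. Chromosome 19 had the highest density, 194 members or 3.31 per Mb, and chromosome 2 had 0.533 per Mb. Chromosome 19 was also dense in shared distal summits (5.92 per Mb) and promoter-proximal summits (13 per Mb), and it held 6.43% of the members against 7.37% and 9.03% of those sets. Of 1499 windows of 1 Mb with a member, 1158 held 1 or 2, and the 11 windows with at least 10 held 170 members in all. The densest was chr19:48000001-49000000 with 35 members among 115 ZNF143 summits, of which 16 had the upstream element, 4 the core and 2 a repeated 31 bp. The next were unlike it. The window chr1:143000001-144000000 held 26 members with a median score of 3.84, none with an element, 25 with a repeated 31 bp and all 26 in skipped regions, and chr4:49000001-50000000 held 17, 1 of them with the upstream element, 9 repeated and all 17 in skipped regions.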

How the data were processed

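ChIP-seq summits of ZNF143, SP1, NRF1 and YY1 in HEK293T-derived cells were analysed. Per the submitters' processing notes, cutadapt, Bowtie2, SAMtools 1.16.1, MACS3 and bedtools were used with build hg38. Their roles, parameters, filters and the pooling of samples are not given in the sources used here. From the values, column 5 of the deposited lists is a −log10 p-value or q-value, which of them is not stated. The lowest is 2.00, as a cutoff of 0.01 gives. It grows with depth, so scores were compared only within the ZNF143 list. The labels name the SP1 and ZNF143 lists for untreated and treated samples alike, and the NRF1 and YY1 lists were assigned by the antibody in their names. These 3 lists of other factors held 126181 (SP1), 39180 (NRF1) and 106578 (YY1) summits on the chromosomes used.

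Distances were taken to 5′ ends of 19970 protein-coding genes of GENCODE 44. Consensus sequences were searched on both strands with 0 mismatches in 101 bp at each summit and in a flank 400 bp towards higher coordinates. Shares at summits and flanks were compared by exact McNemar tests with a threshold of 0.05. Consensus matches may overlap one another, and CTCF was searched by a longer consensus with ambiguity codes. Copies of the central 31 bp were counted over 194 contigs, both strands, as a stand-in for mappability. The planned share of soft-masked bases could not be computed because the reference is in capitals, and CpG was counted instead of taken as a ratio. In the NRF1 and YY1 lists, 44 regions (142 Mb) skip at least 10 peak numbers. The search was tested on simulated sequences with planted copies. Python 3.11.15, numpy 2.4.6, pandas 2.3.3, scipy 1.17.1, numba 0.67.0 and matplotlib 3.10.9 were used.

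The members, consensus sequences and lists were chosen with earlier results of these data known. Members named singly, none on chromosome 8, were the 10 highest scores with a unique 31 bp, the 3 highest with a repeated one, the 5 highest with both elements joined, the 3 highest with the CTCF consensus and up to 6 highest within 500 bp of a small RNA gene start, with the 3 densest 1-Mb windows and the 10 leading 8-letter words. The joined string, the alignment and its 60% limit, the groups by score and by distance, and the printed sequences were chosen after values were seen. Some members that these rules name are not reported here.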

Additional observations from a re-analysis of the deposited data

How the results depend on the processing

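The core ratio stayed above 1 with an adjusted p under 0.05 in exact McNemar tests under all 18 alternatives (1.88 with 1 mismatch to 20.3 with a 10-letter consensus), as did the upstream element ratio under 17 (1.71 with 1 mismatch to 35.2 for scores above the list median). The members' excess over shared distal summits stayed above 0 under 16 alternatives for the core (4.31 to 16.5 points) and 15 for the upstream element (12.6 to 35.7 points). The alternatives for the upstream element were added after seeing the data. The number of members fell to 1645 when no other factor was allowed within 1000 bp and to 1808 for scores above the list median, since both keep fewer summits. The CTCF ratio passed the threshold at 5.67 with other factors absent within 50 bp, 4.00 in windows of 100 bp to either side, 2.43 with 1 mismatch, and 9.0 with starts of every protein-coding transcript, with starts of every transcript, with the highest summit of each peak and with flanks 1000 bp away. The cause was not tested; the counts are small (9 summits and 1 flank behind each 9.0). No CTCF ratio was given with other factors absent within 250 or 1000 bp, for scores above the median or in windows of 25 bp, where no flank held a copy. The share of members near a transcript start was 19.3%, 7.88% and 5.47% with other factors absent within 50, 250 and 1000 bp, 16.4% and 12.7% over 1000 and 10000 bp from 5′ ends, 7.10% with starts of every protein-coding transcript, 12.6% with the highest summit of each peak and 11.3% for scores above the median. No paired analysis was possible because the lists hold no value per sample, and for the same reason no replicate could be left out. Depth per sample is unknown, so a place without a summit may be one where a factor was not detected.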
